A study of Mus musculus with 36 samples.

Results

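The cytosolic ribosomal protein genes encode the proteins that, with ribosomal RNA, build the large and small subunits of the ribosome outside mitochondria. They were taken here as the genes of the deposited gene table whose symbols begin with Rpl or Rps followed by a number, by p and a number or by a, leaving out the Rps6k kinases and symbols marked as pseudogenes. The rule found 87 of 19025 genes. Of these, 77 are core members, 46 of the large and 31 of the small subunit, and the remaining 10 are paralogues, retrocopies by symbol or genes that encode no ribosomal protein. Ribosomal proteins with other symbols, such as Fau and Rack1, fall outside the rule.

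RNA was sequenced from the brains of C57 mice aged 6 to 7 weeks, either with a knock-in at Maoa (KI) or wild type (WT). Maoa encodes a mitochondrial enzyme that degrades monoamine transmitters. The series title names a synonymous change in Maoa and a decrease of its transcription and translation. The regions labelled HP, PFc, Nac, STR, SN and VTA each had 3 KI and 3 WT libraries, 36 in all. Libraries were made from whole tissue with a SMARTER mRNA kit, and the labels spell out none of the region names. Since they do not state whether the 3 libraries of a group represent different mice, each p-value reflects variation between libraries and possibly only technical variation.

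Ribosomal protein mRNAs are short, abundant and made in matched amounts, because each ribosome holds a single copy of most of its proteins. Many of them begin with a C followed by an unbroken stretch of pyrimidines, the terminal oligopyrimidine motif, through which the mTOR pathway and the RNA-binding protein Larp1 set how strongly they are translated and how long they last. In neurons, ribosomal protein mRNAs are also found in axons and dendrites.

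Libraries held 15145623 to 17452939 estimated counts in KI and 17275268 to 18863508 in WT. Maoa itself averaged 59.4 ± 5.57 counts-per-million (CPM) in KI and 54.999 ± 3.43 CPM in WT when the 6 regions were summed (SD, n = 3 each), a log2 fold change of 0.13 ± 0.08 (SE) with an adjusted p of 0.431 in edgeR's quasi-likelihood test. By DESeq2 it was higher in KI in STR (65.6 ± 4.75 CPM in KI, 46.7 ± 2.93 CPM in WT, adjusted p = 0.0492). In SN its log2 fold change was -0.36 ± 0.24 (adjusted p = 0.47 by edgeR), and it was positive in the other 5 regions. The 6 neuronal marker genes summed to 3784 to 7220 CPM and none was at 0 in any library.

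Some libraries went against their region labels, and the member medians of each region below are given with and without them. Fits of other gene lists and of cell type markers are given only with them. The 10 striatal marker genes summed to 5945 CPM in the second KI HP library, 6362 CPM in the second KI SN library and 4241 CPM in the third WT VTA library, and to 2001 CPM in the first KI PFc library. In the other libraries of those 4 regions the sum was at most 894 CPM. The second KI Nac library had 194 CPM of striatal markers and 857 CPM of the 8 hippocampal markers, and the first KI SN library had 477 CPM of hippocampal markers and 59.2 CPM of the 9 dopaminergic markers. Dopaminergic markers summed to 3397 CPM in the first KI Nac library and 1162 CPM in the second WT Nac library, against 82.4 to 157 CPM in the Nac libraries with striatal markers. The third KI STR library had 534 CPM of striatal markers, against 2019 to 6699 CPM in the other STR libraries.

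Core members sit on 19 chromosomes, with 4 of them on X. RefSeq promoters of build GRCm38.p6 were matched to 67 members, and each runs from 250 bases before to 50 after a listed start. An unbroken run of at least 7 C or T that touches the 5 bases before or the first 10 bases after the start, read on the gene's own strand, was found for 33 of the 67 members (49.3%), against 19.3% of the 15030 genes of the table with a promoter. The share was 14.5% for 69 genes of the mitochondrial ribosome and 3.57% for 28 genes of ribosome biogenesis. The windows below show the last 60 bases before and the first 30 bases from the start, with that run in capitals. They were chosen from named members to show a start inside or beside the pyrimidine run, and Rps15, last, has no such run in the zone.
Rpl38: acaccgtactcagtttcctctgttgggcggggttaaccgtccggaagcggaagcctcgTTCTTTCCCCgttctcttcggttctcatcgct
Rps21: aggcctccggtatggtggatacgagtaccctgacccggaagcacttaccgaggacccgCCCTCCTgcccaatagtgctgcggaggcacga
Rplp2: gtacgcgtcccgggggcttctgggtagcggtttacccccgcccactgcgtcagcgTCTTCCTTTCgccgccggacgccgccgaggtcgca
Rps24: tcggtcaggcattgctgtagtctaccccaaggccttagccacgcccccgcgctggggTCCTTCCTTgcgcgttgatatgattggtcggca
Rpl13a: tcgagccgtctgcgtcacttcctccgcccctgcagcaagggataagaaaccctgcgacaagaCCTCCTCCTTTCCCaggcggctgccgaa
Rps15: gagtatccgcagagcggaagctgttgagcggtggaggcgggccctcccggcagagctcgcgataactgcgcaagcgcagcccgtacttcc
The Rpl38 window lies at chr11:114668520-114668609 on the plus strand, and the Rps21 window at chr2:180257319-180257408 on the plus strand. The Rplp2 window is chr7:141447591-141447680 and the Rps24 window chr14:24490618-24490707, both on the plus strand. The Rpl13a window is chr7:45128716-45128805 on the minus strand and the Rps15 window chr10:80292371-80292460 on the plus strand. RefSeq lists 2 starts for Rps21 and for Rps24, of which the first is shown.

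Of the other motifs searched on both strands of the whole 300 bases, CCGGAAG, which contains the core of sites for ETS factors, was in 38.8% of member promoters and 14.9% of all promoters. It was also in 37.7% of mitochondrial ribosome promoters and 39.3% of biogenesis promoters, so a like share was found outside the cytosolic ribosome. GGGCGG was in 59.7% of member promoters and 56.7% of all, CACGTG in 8.96% and 10.01%, and TATAAA in 11.9% and 11.5%. These matches describe the windows and were not tested.

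Per length, the members were among the most abundant mRNAs of the brain. Together they took 7.95% to 14.98% of all transcripts-per-million (TPM, counts scaled by gene length) in KI libraries and 7.21% to 13.6% in WT libraries, while they took 1.58% to 3.52% of counts in KI and 1.31% to 2.99% in WT. Of the 77 core members, 70 averaged at least 500 TPM and 34 were among the 100 genes with the highest mean TPM. The 10 highest were Rpl38, Rps21, Rps15, Rps29, Rplp1, Rpl41, Rps27, Rpl23a, Rps14 and Rps23. Rpl38, whose loss in mouse disturbs the translation of Hox mRNAs, averaged 3647 ± 595 TPM over 18 KI libraries and 3188 ± 568 TPM over 18 WT libraries (SD). Rplp1, a stalk protein that helps to recruit elongation factors, averaged 3303 ± 619 TPM in KI and 2575 ± 716 TPM in WT. Rpsa, a small subunit protein also known as a laminin receptor precursor, averaged 1056 ± 231 TPM in KI and 782 ± 198 TPM in WT.

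A few core members stood far below the rest in TPM. Rps6, the small subunit protein that S6 kinases phosphorylate downstream of mTOR, averaged 45.6 ± 10.4 TPM in KI and 41.1 ± 10.7 TPM in WT. Rps15a averaged 63.9 ± 4.96 TPM in KI and 59.7 ± 7.28 TPM in WT, and Rps20 averaged 108 ± 21.0 TPM in KI and 82.7 ± 19.5 TPM in WT. Without scaling by length, Rps6 was again the lowest core member, at 26.0 CPM over the 36 libraries. Rps15a and Rps20 averaged 157 and 160 CPM, above Rpl38 at 142 CPM, so their low standing holds for TPM and not for counts. Estimated counts of Rps6 were not whole numbers in any of the 36 libraries, as for 7 members in all, while those of 67 members were whole in every library. The way in which reads shared with near-identical copies were divided is not given in the sources used here, so levels of members with processed copies are uncertain.

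Between KI and WT, the members were higher in KI together, most clearly in HP and PFc and in the sums over regions. In HP they took 1.97%, 2.70% and 2.61% of counts in the 3 KI libraries, against 1.78%, 1.47% and 1.36% in the 3 WT libraries. In PFc they took 2.99%, 2.13% and 2.19% in KI, against 1.31%, 1.91% and 1.63% in WT. Every KI library of these 2 regions lay above every WT library of its region. In SN the KI libraries took 2.08%, 3.52% and 3.08% and the WT libraries 2.53%, 2.43% and 1.56%, so the groups overlapped. They overlapped too in Nac (3.33%, 1.58% and 2.502% in KI, 2.52%, 1.69% and 2.66% in WT), in STR (2.30%, 2.14% and 2.93% in KI, 2.49%, 2.18% and 1.67% in WT) and in VTA (3.05%, 2.91% and 3.14% in KI, 2.22%, 2.79% and 2.99% in WT). In these bulk samples, more cells rich in these mRNAs and more such mRNA per cell cannot be told apart.

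**Figure D1:**
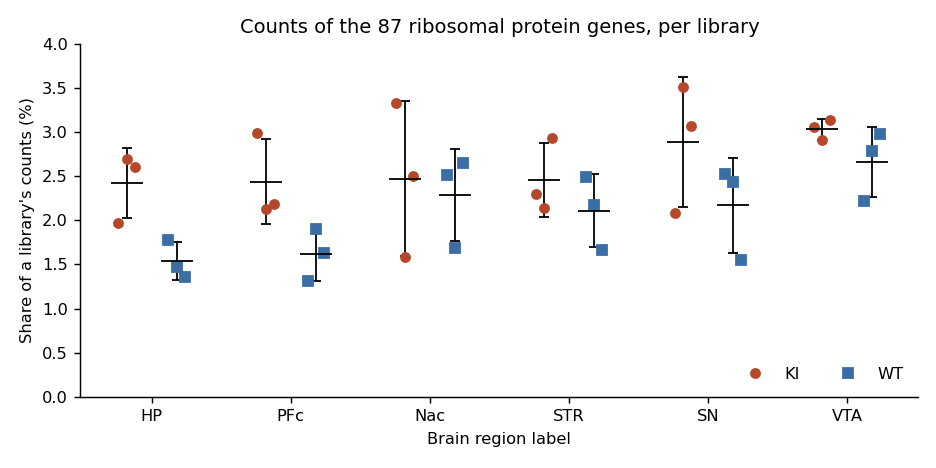
Share of each library's estimated counts (vertical axis, %) that fell on the 87 ribosomal protein genes, for the 3 KI libraries (circles) and the 3 WT libraries (squares) of each region; bars are means ± SD. KI and WT points do not overlap in HP and PFc, and they overlap in the other 4 regions.

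In HP, 84 of 87 members passed the filter on low counts and all 84 had a positive log2 fold change, with a median of 0.64, against 0.00 over the 14144 genes tested, of which 50.2% were positive. The median corresponds to a 1.56-fold higher level. By edgeR 0 of the 84 members and 0.0% of all genes passed an adjusted p of 0.05, the smallest being 0.304. At an unadjusted p under 0.05 there were 76 members, against 8.52% of all genes higher in KI. DESeq2 called 43 members, all higher in KI, against 1.58% of genes called higher, and all 3 KI libraries lay above all 3 WT libraries for 73 of 84 members, against 11.4% of genes. Without the second KI HP library, which carried striatal markers, the median was 0.58, DESeq2 called 66 members (3.36% of genes higher) and edgeR 0 (0.224% of genes higher), with a smallest adjusted p of 0.0566.

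Among the HP members, Rpsa had the largest fold change, with 618, 1085 and 871 CPM in KI and 525, 427 and 373 CPM in WT. Its log2 fold change was 0.96 ± 0.23 (SE, adjusted p = 0.304 by edgeR and 0.0121 by DESeq2). Without the second KI HP library, which carried striatal markers, Rpsa was at 0.79 by DESeq2. It then stood below Rps14 (0.87), Rpl30 (0.85) and Rplp0 (0.84), so its top rank depended on that library. Rpl30, a large subunit protein that in yeast represses the splicing of its own transcript, had 214, 319 and 314 CPM in KI and 165, 147 and 136 CPM in WT. Rpl30 had the smallest DESeq2 adjusted p of the members (0.00221), with a log2 fold change of 0.92 ± 0.18. Rps29, a small zinc-binding protein, followed with a log2 fold change of 0.91 ± 0.23 (235.9 ± 65.6 CPM in KI and 125 ± 24.1 CPM in WT, DESeq2 adjusted p = 0.0194). For each of these 3 genes the KI libraries lay above the WT libraries.

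The stalk proteins were higher in KI HP as well. Rplp0, the stalk base, had 301, 365 and 420 CPM in KI and 241, 195 and 181 CPM in WT (log2 fold change 0.82 ± 0.18, DESeq2 adjusted p = 0.00715), and Rplp1 0.85 ± 0.21 (0.0198). Rplp2 had a log2 fold change of 0.59 ± 0.17 and did not pass (DESeq2 adjusted p = 0.0715). The lowest fold changes belonged to members that are not standard ribosomal proteins: Rps19bp1, which encodes a protein that binds Rps19, with 15.7 ± 0.586 CPM in KI and 15.2 ± 0.969 CPM in WT (0.06 ± 0.12), Rpl7l1, a relative of Rpl7, with 52.8 ± 5.10 CPM in KI and 49.1 ± 4.55 CPM in WT (0.11 ± 0.13), and Rpl36al, a paralogue of Rpl36a, with 56.8 ± 5.03 CPM in KI and 50.2 ± 6.32 CPM in WT (0.18 ± 0.14). Their KI and WT libraries overlapped. Over the 77 core members alone the lowest log2 fold change was 0.29.

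In PFc, all 84 tested members were again positive, with a median of 0.63 (1.55-fold), against 0.03 over all 14167 genes, of which 53.4% were positive. By edgeR 0 of 84 passed, as for 0.0% of all genes, with a smallest adjusted p of 0.208, and 75 had an unadjusted p under 0.05, against 9.69% of genes higher in KI. DESeq2 called 29 members, all higher, against 1.75% of genes, and the groups did not overlap for 74 members, against 10.1% of genes. Without the first KI PFc library, which carried striatal markers and had the highest member share of the 6, the median was 0.47 and 82 of 84 members were positive. EdgeR then called 4 members higher (2.73% of genes) and DESeq2 55 (6.45% of genes). The 4 that edgeR called were Rps28 (log2 fold change 0.75, adjusted p = 0.0326), Rplp0 (0.62, 0.0455), Rps29 (0.69, 0.0465) and Rpl28 (0.51, 0.0468).

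Rps28, a small protein near the mRNA exit channel of the small subunit, had the largest PFc difference, with 155, 94.6 and 97.4 CPM in KI and 49.7, 68.9 and 61.0 CPM in WT. Its log2 fold change was 0.99 ± 0.21 (adjusted p = 0.208 by edgeR and 0.00463 by DESeq2). Rps29 followed with 296, 198 and 193 CPM in KI and 104, 153 and 126 CPM in WT (0.89 ± 0.21, DESeq2 adjusted p = 0.0112). Rplp1 had 451, 316 and 339 CPM in KI and 158, 261 and 212 CPM in WT (0.85 ± 0.21, DESeq2 adjusted p = 0.0177). In all 3 genes the first KI library was the highest of the 6, and the other KI libraries still lay above all WT libraries. The lowest were Rpl7l1 (0.12 ± 0.14), Rpl32l (0.24 ± 0.34) and the core member Rps15a (0.27 ± 0.12), none of which passed with either tool, and without the first KI PFc library Rpl7l1 and Rpl32l were at -0.02 and -0.03.

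In the other 4 regions the medians were smaller or the libraries wider apart. In SN the median was 0.45 with 82 of 84 members positive (51.7% of genes), 10 had an unadjusted edgeR p under 0.05 (9.35% of genes higher) and 0 an adjusted one. DESeq2 called 1 member, against 3.81% of genes higher: Rps2, a small subunit protein near the mRNA entry channel, with 594, 1035 and 881 CPM in KI and 531, 556 and 342 CPM in WT (log2 fold change 0.90 ± 0.29, adjusted p = 0.0479). Without the first and second KI SN libraries, DESeq2 called 0 members (0.824% of genes higher), edgeR called 0 (0.0% of genes) and the median was 0.52. That fit has a lone KI library, whose variance is taken from the WT libraries. In VTA the median was 0.17 with 78 positive (48.9% of genes). By edgeR 0 VTA members passed an adjusted p and 7 an unadjusted one (6.05% of genes higher), and by DESeq2 0 passed (0.918% of genes higher). The unadjusted counts of 10 in SN and 7 in VTA are close to the shares of all genes. The groups did not overlap for 5 members in SN (7.78% of genes) and 26 in VTA (11.0% of genes). Without the third WT VTA library, which carried striatal markers, the median was 0.29, edgeR called 2 members higher (3.58% of genes) and DESeq2 27 (7.1% of genes). The 2 that edgeR called were Rps14 (0.68, adjusted p = 0.0423) and Rps7 (0.58, 0.0435).

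Which members stood at the top and bottom changed from region to region. In SN the highest log2 fold changes were those of Rpl37rt (0.99), Rps2 (0.90) and Rpl30 (0.80) and the lowest those of Rpl7l1 (-0.05), Rpl36al (-0.01) and Rps27l (0.07). In VTA the highest were Rpl37rt (0.51), Rps14 (0.50) and Rps7 (0.44) and the lowest Rps16 (-0.12), Rps19bp1 (-0.10) and Rps2 (-0.07). Without the third WT VTA library Rps2 was at 0.27 in VTA, beside a member median of 0.29. In STR the highest were Rps27a (0.37), which is made as a fusion to ubiquitin, Rps14 (0.36) and Rpl13a (0.34), and the lowest Rps19bp1 (-0.13), Rps27l (-0.12) and Rpl29 (-0.11). In Nac they were Rpl30 (0.38), Rps4x (0.38) and Rplp0 (0.37) at the top and Rpl22l1 (-0.12), Rpl41 (-0.05) and Rps25 (-0.04) at the bottom. None of these passed an adjusted p of 0.05 in its region by edgeR, and by DESeq2 Rps2 in SN alone did.

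In Nac and STR the medians were 0.16 each, with 78 and 76 of 84 members positive (53.6% and 51.0% of genes), and 0 members had an unadjusted p under 0.05 in edgeR (0.516% and 6.16% of genes higher). DESeq2 called 0 members in both (0.00698% and 0.901% of genes higher). The groups did not overlap for 0 members in Nac (0.76% of genes) and 3 in STR (10.4% of genes). The authors' deposited table has 0 members higher at a q-value under 0.05 in Nac, STR, SN and VTA, and 0.00559%, 0.685%, 2.89% and 0.59% of genes in that order. Without the first KI Nac library the Nac median was -0.08. Without the 3 Nac libraries that carry other markers, which left a lone KI library, the Nac median was 0.01. Without the third KI STR library the STR median was 0.01, with 0 members called by edgeR (0.0% of genes) or DESeq2 (0.751% of genes higher). In HP and PFc the authors' deposited table has 29 and 18 members higher in KI at a q-value under 0.05, and 0.838% and 0.958% of all genes.

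**Figure D2:**
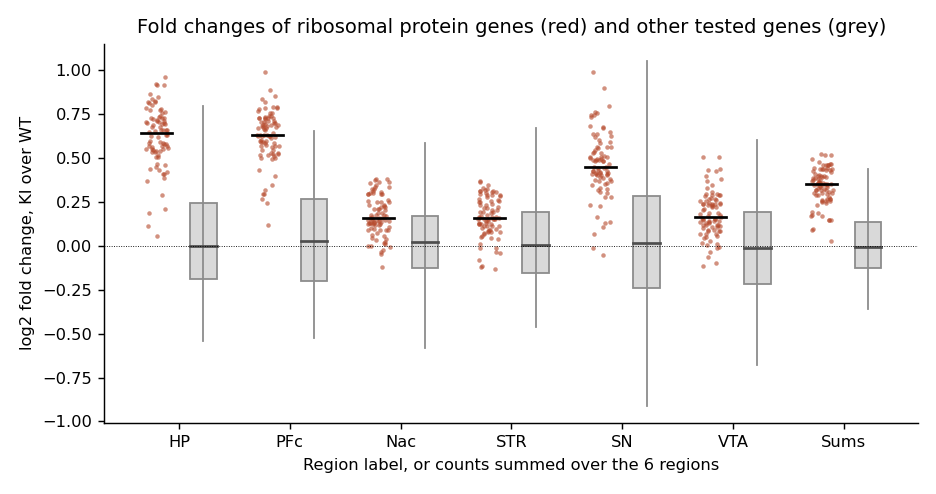
Log2 fold change of KI over WT (vertical axis) in each region and in counts summed over the 6 regions, for each tested ribosomal protein gene (red points, black line at the median) and for all other tested genes (grey box, quartiles with median; line, 5th to 95th percentile). The member medians are 0.64 in HP, 0.63 in PFc and 0.35 in the sums, where all members are above 0.

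The genotype differences of the regions were not shown to differ from each other. In a fit of all 36 libraries, the F test of genotype by region found 0 of 85 members at an adjusted p under 0.05 (0.0% of genes), with a smallest adjusted p of 0.563, and 0 at an unadjusted p under 0.05 (8.73% of genes). DESeq2's likelihood ratio test also called 0 members (0.228% of genes). In the 6 separate fits, 66 of 84 members were positive in all 6 regions, against 7.69% of genes, another 14 in 5 regions and 4 in 4 regions. Without the libraries with markers of another region, 24 of 84 members were positive in all 6, against 6.3% of genes, and 39 in 5 regions. In Nac and in SN those fits had a lone KI library.

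Counts were also summed over the 6 regions for each number in the titles, which gave 3 KI and 3 WT sums. The members took 2.62%, 2.49% and 2.73% of counts in the KI sums and 2.13%, 2.07% and 1.96% in the WT sums. All 85 tested members were positive (49.2% of genes), with a median log2 fold change of 0.35 (1.27-fold), against 0.00 over the 16171 genes tested. By edgeR 0 members passed, as for 0.0% of genes, the smallest adjusted p being 0.0543, and 75 had an unadjusted p under 0.05 (9.33% of genes higher). DESeq2 called 74 of 85 members, all higher in KI, against 4.03% of genes. The KI sums lay above the WT sums for 76 members, against 10.4% of genes. With all 36 libraries kept separate and region as a term, edgeR called 64 members higher (4.92% of genes), and without the 9 libraries with markers of another region 61 (10.6% of genes). Both fits count libraries of different regions as independent, though they may come from the same mouse. Their p-values may therefore be too small. The sums treat each genotype and number as a replicate, and the labels do not state that numbers stand for different mice. The sums also include the 9 libraries with markers of another region.

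In the sums, Rpl30 had 275, 281 and 297 CPM in KI and 203, 202 and 198 CPM in WT. Its log2 fold change was 0.52 ± 0.06 (adjusted p = 0.0543 by edgeR and 6.35e-11 by DESeq2). Rpsa had 867, 888 and 956 CPM in KI and 654, 639 and 628 CPM in WT (0.52 ± 0.07, adjusted p = 0.0543 by edgeR and 4.28e-09 by DESeq2). Rpl37rt, a symbol of the Rpl37 retrocopy type, matched them in size at 0.52 ± 0.15 from 1.72 ± 0.116 CPM in KI and 1.22 ± 0.124 CPM in WT, and did not pass with either tool (adjusted p = 0.121 by edgeR and 0.0574 by DESeq2). Rplp0 and Rplp1 were at 0.46 ± 0.07 and 0.46 ± 0.08 and Rplp2 at 0.27 ± 0.06, each called by DESeq2. Rps6 was at 0.23 ± 0.06 with 29.1, 26.1 and 28.1 CPM in KI and 24.5, 24.3 and 23.2 CPM in WT (DESeq2 adjusted p = 0.0259).

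**Figure D3:**
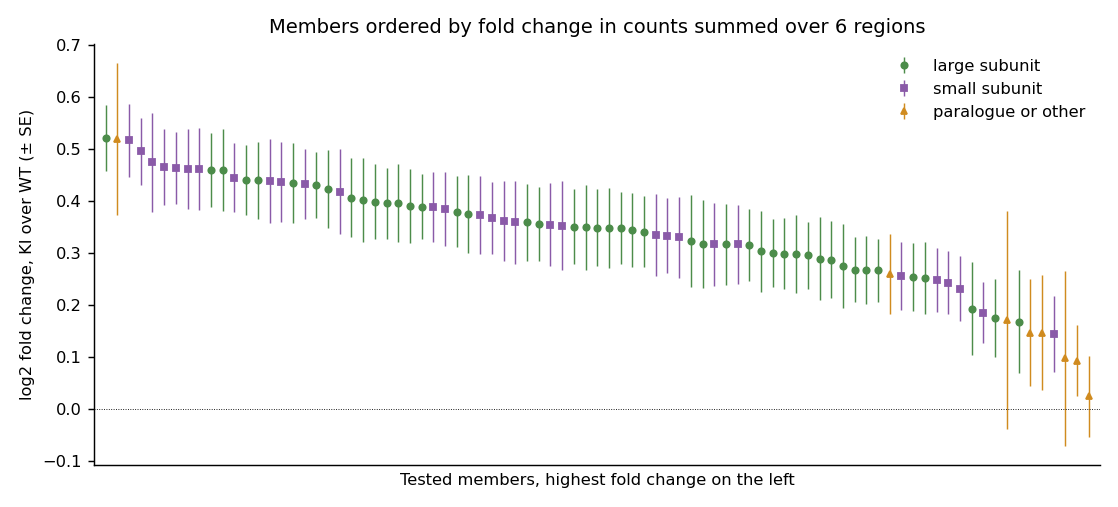
Log2 fold change of KI over WT (vertical axis, ± SE from edgeR) of the 85 tested members in counts summed over 6 regions, ordered from the highest on the left (horizontal axis) and marked as core large subunit, core small subunit, or paralogue and other. Values run from 0.52 for Rpl30 to 0.02 for Rps19bp1, and most of the paralogues and other genes stand at the low end.

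The members that did not pass in the sums were mostly paralogues. DESeq2 did not call 11 of the 85, among them the core members Rpl11, Rpl18 and Rpl36, and Rpl37rt, Rpl36al, Rpl7l1, Rps27l, Rpl32l, Rps19bp1 and Rpl3l, for which it gave no adjusted p. Beside its main copy, Rpl36al was at 0.15 ± 0.10 and Rpl36a at 0.40 ± 0.07, and Rps27l was at 0.15 ± 0.11 and Rps27 at 0.39 ± 0.07. Rpl7l1 was at 0.09 ± 0.07 and Rpl7 at 0.34 ± 0.07, and Rpl22l1 at 0.26 ± 0.08 and Rpl22 at 0.36 ± 0.07. The differences between a paralogue and its main copy were not tested. Rps19bp1, which is no copy of Rps19, was at 0.02 ± 0.08 and Rps19 at 0.38 ± 0.07. Rpl3l, the muscle paralogue of Rpl3, averaged 0.566 TPM over all libraries, and Rpl39l and Rps27rt, at 0.248 and 1.16 TPM, passed no filter on low counts.

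Most of the paralogues and other non-core members also followed the core members less closely from library to library. For each library the log2 level (CPM + 0.5) of a member was set against the median of the 84 members tested throughout. The SD of this difference over the 36 libraries had a median of 0.12 over all 84 members, while that of the members' own log2 levels was 0.41. It was 0.12 for the 77 core members and 0.31 for the 7 others. The largest values were those of Rps27l (0.37), Rps19bp1 (0.36), Rpl7l1 (0.35) and Rpl37rt (0.31), and the core members Rps2 (0.28) and Rpl22 (0.27) came next. The paralogue Rpl22l1 (0.22) followed the median more closely than its main copy Rpl22. Since 77 of the 84 members are core, the median set beside each member is mostly theirs. Low counts also widen such an SD: Rpl37rt averaged 1.47 CPM, Rpl32l 2.69 CPM, Rps27l 14.0 CPM and Rps19bp1 16.3 CPM, the lowest levels of the 84. The part of level in these SDs was not tested.

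Other parts of the translation machinery had like or smaller medians. Fau, which encodes a ribosomal protein fused to a ubiquitin-like protein, averaged 247 ± 13.1 CPM in KI and 213 ± 17.7 CPM in WT in the sums (0.24 ± 0.08, adjusted p = 0.0559 by DESeq2). Rack1, a scaffold on the small subunit, averaged 252 ± 10.6 CPM in KI and 201 ± 10.2 CPM in WT (0.35 ± 0.07, adjusted p = 0.000277 by DESeq2). The 9 genes of elongation and Tpt1 had medians of 0.46, 0.38 and 0.19 in HP, PFc and the sums, with 4 higher by DESeq2 in the sums. Eef1a1, which brings aminoacyl-tRNA to the ribosome, averaged 4329 ± 203.6 CPM in KI and 3236 ± 200.6 CPM in WT in the sums (0.44 ± 0.08, DESeq2 called), and Eef2, the translocation factor, 1995 ± 106 CPM in KI and 1682 ± 115 CPM in WT (0.27 ± 0.08, adjusted p = 0.0259 by DESeq2). Tpt1, whose mRNA also carries a terminal pyrimidine stretch, averaged 834 ± 63.5 CPM in KI and 622 ± 31.9 CPM in WT (0.44 ± 0.08).

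The initiation factors and the biogenesis genes stood nearer to the median of all genes. The 31 initiation genes had medians of 0.12, 0.13 and 0.06 in HP, PFc and the sums, with 5 higher and 1 lower by DESeq2 in the sums. The 34 genes of ribosome biogenesis had medians of -0.01, -0.04 and -0.02, with 2 higher in the sums, and the 15 genes of mTOR signalling -0.13, -0.04 and -0.06, with 1 lower. Larp1 averaged 122 ± 7.04 CPM in KI and 143 ± 5.36 CPM in WT in the sums (-0.22 ± 0.07, adjusted p = 0.163 by edgeR and 0.0784 by DESeq2). The 78 genes of the mitochondrial ribosome were at 0.03, 0.23 and 0.01, the genes of oxidative phosphorylation at 0.16, 0.43 and 0.07, and those of the proteasome at -0.01, 0.13 and 0.02. In PFc the oxidative phosphorylation genes summed to 17170 CPM in the first KI library, which carried striatal markers. The other KI PFc libraries, at 11840 and 11820 CPM, lay within the WT range of 10030 to 12120 CPM.

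**Figure D4:**
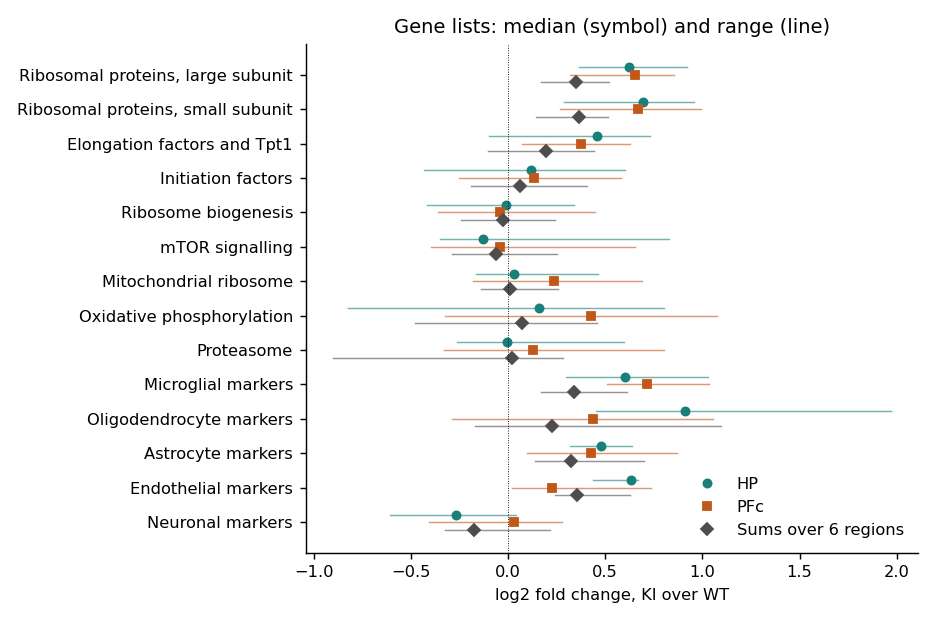
Median (symbol) and range (line) of the log2 fold change of KI over WT (horizontal axis) over the tested genes of each list (rows), in HP, PFc and the sums over 6 regions. The core ribosomal proteins and the microglial markers lie to the right in all 3, and biogenesis and mTOR genes lie near 0.

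By DESeq2, some markers of other cell types differed between KI and WT as well, also in VTA, where 0 members passed with all libraries kept. All 12 microglial markers were higher in HP, PFc and the sums, with medians of 0.60, 0.71 and 0.34, and DESeq2 called 4, 10 and 7 of them. Their summed level was 725 to 734 CPM in KI HP and 405 to 544 CPM in WT HP, and 940 to 1091 CPM in KI PFc and 556 to 784 CPM in WT PFc. The 10 oligodendrocyte markers had medians of 0.91 in HP, 0.44 in PFc and 0.22 in the sums. Their summed level was 9452 to 12930 CPM in KI HP and 3838 to 4871 CPM in WT HP. In PFc it was 17360 CPM in the first KI library, which carried striatal markers. The other KI PFc libraries, at 4464 and 3158 CPM, lay below the WT PFc libraries, at 4756 to 6619 CPM. The 8 astrocyte markers were at 0.48, 0.43 and 0.32 and the 6 endothelial markers at 0.63, 0.22 and 0.35, all positive in all 3 fits. The 6 neuronal markers were at -0.27, 0.03 and -0.17. In Nac all 12 microglial markers were positive, with a median of 0.53, and the oligodendrocyte median was 0.54, with 0 called by edgeR or DESeq2. In VTA the oligodendrocyte markers had a median of 0.44 and the endothelial markers of 0.59, with 4 of each called by DESeq2, and in SN the oligodendrocyte median was -0.81 with 0 called. None of these markers was at 0 in any library. Library totals differed too: in HP, PFc, STR, SN and VTA every KI library had fewer counts than every WT library, and in Nac the groups overlapped. The part of these markers and of depth in the member differences was not tested.

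Among the WT libraries, members were lowest in HP and PFc, and which region was highest depended on 2 libraries with markers of another region. They took 2.66% ± 0.397 of counts in VTA, 2.29% ± 0.525 in Nac, 2.17% ± 0.537 in SN, 2.11% ± 0.418 in STR, 1.61% ± 0.298 in PFc and 1.54% ± 0.216 in HP (SD, n = 3 each), and neighbours in this order differed by less than their SDs except STR and PFc, whose difference was larger than both SDs. Without the second WT Nac and the third WT VTA library, the mean share was 2.59% in Nac and 2.503% in VTA (n = 2 each), so Nac stood above VTA. VTA had the highest mean for 79 of 84 tested members, and HP the lowest for 55 and PFc for 29. Without those 2 libraries Nac had the highest mean for 45 members and VTA for 36, and HP and PFc had the lowest for 55 and 29 as before. The mean of the highest region was 1.24 to 2.45 times that of the lowest, with a median of 1.82. EdgeR's F test over the 6 regions called 20 of 84 members, a smaller share than the 48.0% of all genes it called, and DESeq2 called 32 of 84, against 56.3% of genes. EdgeR's F test called 32 of 85 members without the second WT Nac and the third WT VTA library (70.0% of genes). By edgeR there were 0, 1 and 8 called members without the libraries numbered 1, 2 and 3. The shares of all genes called in those smaller fits are not given here.

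The smallest p belonged to Rps27l, the Rps27 paralogue, which was the one called member with its highest mean in STR. It averaged 20.3 ± 2.92 CPM in STR, 16.3 ± 3.46 in VTA, 13.6 ± 2.64 in SN, 12.9 ± 1.99 in Nac, 9.002 ± 1.41 in HP and 8.28 ± 2.66 in PFc (SD, n = 3 each, adjusted p = 0.00444 by edgeR). Among the next were Rpl28, Rpl24, Rpl36, Rpl36al, Rps9, Rpl22l1, Rpl14 and Rpl6, each highest in VTA, with adjusted p between 0.0108 for Rpl28 and 0.0179 for Rpl6 by edgeR. Rpl28 averaged 254 ± 28.0 CPM in VTA, 222 ± 42.5 in STR, 218 ± 57.5 in SN, 197 ± 19.5 in Nac, 138 ± 20.1 in HP and 127 ± 13.9 in PFc. Rps6 was called as well, at 32.8 CPM in VTA and 14.1 CPM in PFc (adjusted p = 0.0238 by edgeR). Without the second WT Nac and the third WT VTA library, Rps27l was still highest in STR, at 20.3 CPM. Rpl28 and Rps6 were then still highest in VTA, at 262 and 28.7 CPM. For the other genes named here the highest region without those libraries is not given.

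The deposited transcript table allowed a look at which transcripts carried the members' counts. Of the members with at least 2 listed transcripts, 13 had a second one with at least 10% of the counts. In Rpl10a, Rps10, Rps18 and Rps28 the first 2 entries are copies of 1 transcript that shared counts equally, and Rpl37rt, Rpl39l and Rpl3l had under 20 counts in some library, which left Rpl11, Rpl22l1, Rpl35a, Rpl38, Rpl5 and Rps24. For each, the second transcript's share was averaged over the 6 regions for each genotype and number. Rpl11, which with Rpl5 and 5S rRNA binds Mdm2 when ribosome assembly is disturbed, had 40.2% ± 0.967 of its counts on its second transcript in KI and 43.7% ± 0.759 in WT (SD, n = 3 each, exact permutation p = 0.1, two-sided). The groups did not overlap for Rpl11 or for Rps24, which had 20.3% ± 0.218 in KI and 19.2% ± 0.371 in WT (exact permutation p = 0.1). A p of 0.1 is the smallest that 3 against 3 allows, and over the 6 genes tested the adjusted p was 0.3 for both. Rpl5 had 43.1% ± 1.06 in KI and 40.9% ± 1.26 in WT and Rpl35a 14.4% ± 0.515 in KI and 13.5% ± 0.660 in WT (exact permutation p = 0.2 each), while Rpl22l1 and Rpl38 differed by 0.61 and -0.46 percentage points (exact permutation p = 0.6 and 0.7).

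Within HP, the second Rpl11 transcript held 40.7%, 39.3% and 37.8% of counts in KI and 47.0%, 43.0% and 44.5% in WT. In SN it held 39.8%, 37.8% and 35.8% in KI and 41.7%, 41.5% and 46.4% in WT, and in STR 39.4%, 40.6% and 40.9% in KI and 42.7%, 45.5% and 45.8% in WT. KI libraries lay below WT libraries in these 3 regions and in PFc, where KI had 34.4%, 42.1% and 43.1% and WT 43.2%, 47.1% and 45.8%, and the groups overlapped in Nac and VTA.

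Rps24, whose gene is known for tissue differences in the splicing of short exons near its end, spread its counts over 7 listed transcripts. The most abundant held 62.9% ± 2.47 of Rps24 counts in WT HP and 66.2% ± 2.31 in WT PFc, and 51.2% ± 2.40 in WT STR and 46.7% ± 3.86 in WT SN (SD, n = 3 each). In Nac and VTA the WT libraries divided: 64.0%, 45.2% and 63.5% in WT Nac and 42.9%, 48.5% and 66.7% in WT VTA. The library that stood apart was in each case the one whose region markers went against its label, the second of WT Nac, with dopaminergic markers, and the third of WT VTA, with striatal markers. In KI SN the first and second libraries, without dopaminergic markers at the level of the region, held 63.6% and 66.7%, and the third held 54.98%. In KI Nac the first library, with dopaminergic markers, held 50.4%, and the others 59.6% and 65.1%. The KI VTA libraries held 48.7%, 50.4% and 49.9%.

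**Figure D5:**
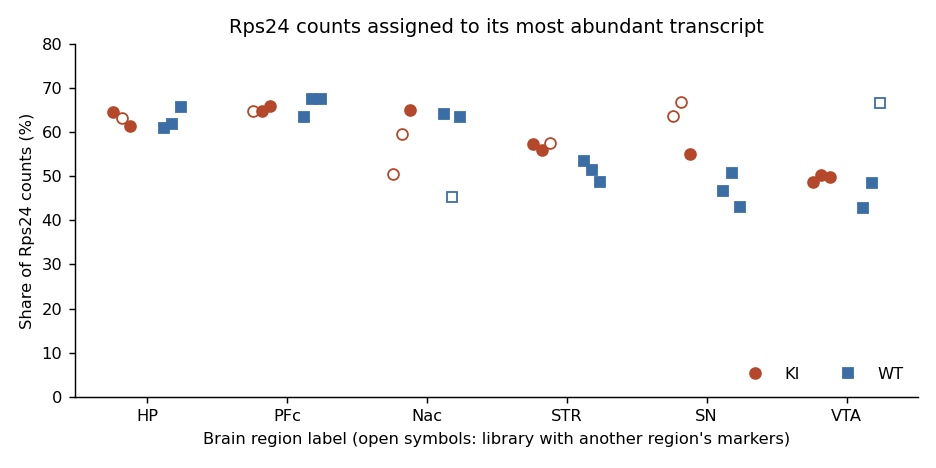
Share of Rps24 counts assigned to its most abundant transcript (vertical axis, %) in each library of each region, KI as circles and WT as squares, with open symbols for libraries that carried markers of another region. HP and PFc libraries lie between 61.0% and 67.6%, and the open WT symbols in Nac (45.2%) and VTA (66.7%) stand apart from their regions.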

How the data were processed

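RNA-seq libraries of 6 mouse brain regions, 3 KI and 3 WT each, were grouped by their titles. Per the file headers, the authors deposited estimated counts and TPM for each gene and transcript. The deposited table of comparisons holds log2 fold changes and DESeq2 p-values and q-values, per the file headers. The build was GRCm38.p6 per the submitters' processing notes. The aligner, counter and strand setting were not given in the sources used here. Another 180 per-sample columns were not used. Of the estimated counts of genes, 9.88% were not whole, and all were rounded before testing. Of 19025 gene identifiers, 18969 matched RefSeq.

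KI was tested against WT in each region, and in counts summed over regions for each number in the titles, with edgeR 4.0.16 (R 4.3.3, limma 3.58.1): filterByExpr, TMM scaling, the quasi-likelihood test and Benjamini-Hochberg adjustment over all genes tested, with a threshold of 0.05. Standard errors are the log2 fold change divided by the square root of F. The regions in WT and the genotype by region term were F tests. DESeq2 1.42.0, other filters and scalings, leaving out libraries, and a block were alternatives. CPM are counts-per-million of the library total. Transcript shares were compared with exact two-sided permutation tests. The tests were tried on simulated counts, and figures were drawn with matplotlib 3.10.9 in Python 3.11.15.

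The members and gene lists were chosen with earlier results of these data known. Named members were the 10 highest by TPM, the 3 highest and 3 lowest fold changes of each fit, up to 10 called members by p, paralogues with their main copies, and Rplp0, Rplp1, Rplp2, Rpsa, Rps6 and Rps24. Libraries that carry markers of another region were kept in the main tests, and leaving them out in DESeq2, in the order of WT regions and in the signs over regions was added after the data were seen. Some results are not reported here.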

Additional observations from a re-analysis of the deposited data

How the results depend on the processing

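EdgeR called 0 members in each region and in the sums (0.0% of genes), and 20 among the WT regions (48.0% of genes). DESeq2 called 43 in HP (1.58% of genes higher), 29 in PFc (1.75%), 1 in SN (3.81%) and 74 in the sums (4.03%). Among the WT regions DESeq2 called 32 members and 56.3% of all genes. Without the libraries with markers of another region, edgeR called 4 in PFc (2.73% of genes higher), 2 in VTA (3.58%) and 61 over all regions (10.6%). Among the WT regions it then called 32 (70.0% of genes). DESeq2 without those libraries, an alternative chosen after seeing the data, called 66 in HP (3.36% of genes higher), 55 in PFc (6.45%) and 27 in VTA (7.1%). With all 36 libraries and region as a term edgeR called 64 (4.92% of genes higher). That fit, and the fit that called 61, counted libraries that may come from the same mouse as independent. Leaving out 1 library at a time gave 0 to 4 called members in PFc, with 4 without the first KI library, 0 to 2 in VTA, with 2 without the third WT library. Leaving out the 6 WT libraries of 1 number at a time gave 0 to 8 among the WT regions, and the shares of all genes in those fits are not given.

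The member median stayed positive when single libraries were left out, at 0.57 to 0.75 in HP, 0.47 to 0.80 in PFc, 0.01 to 0.33 in STR, 0.25 to 0.65 in SN, 0.06 to 0.29 in VTA and 0.31 to 0.40 in the sums. In Nac it ran from -0.08 to 0.39.

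Single members near 0 changed sign. Without the libraries with other markers, by both tools, Rpl7l1 was at -0.02 and Rpl32l at -0.03 in PFc, Rpl7l1 at 0.09 and Rpl36al at 0.11 in SN, and Rps16 at 0.01 and Rps2 at 0.27 in VTA, and by edgeR Rps19bp1 was at -0.05 over all regions. With 1 library left out, the ranges were -0.02 to 0.19 for Rpl7l1 and -0.03 to 0.56 for Rpl32l in PFc. In Nac they were -0.44 to 0.11 for Rpl22l1, -0.38 to 0.22 for Rpl41 and -0.27 to 0.18 for Rps25. In STR they were -0.28 to 0.05 for Rps19bp1 and -0.26 to 0.12 for Rpl29. In SN they were -0.13 to 0.03 for Rpl7l1, -0.17 to 0.08 for Rpl36al and -0.09 to 0.21 for Rps27l. In VTA they were -0.25 to 0.01 for Rps16 and -0.24 to 0.27 for Rps2, and in the sums -0.03 to 0.07 for Rps19bp1 and -0.05 to 0.20 for Rpl32l. The transcript share differences ran from -0.13 to 1.74 percentage points for Rpl22l1 and -1.33 to 0.67 for Rpl38. The cause of these changes was not tested.

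With the replicate block, edgeR called 0 members in each genotype comparison and 19 among the WT regions. The shares of all genes called with the block are not given here. Libraries that share a number were not paired by their deviations: their correlations ran from -0.61 to 0.58, with 3 of 21 above 0.1, and 4 of 21 were best with their own number.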
